A study of Mus musculus with 4 samples.

Results

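Stress-response basal keratinocytes were non-cycling basal cells of embryonic mouse skin that carried transcripts of 4 stress genes, Fosl1, Atf3, Cxcl1 and Cxcl2. They numbered 713 of the 11221 cells kept from 19789 barcodes. Members were chosen by their UMI counts, a UMI being 1 captured RNA molecule. Barcodes with 2000 or more detected genes and a mitochondrial share under 10% of UMIs were kept as cells. It counted as basal with at least 50 UMIs per 10000 of Krt5, Krt14 and Krt15, under 20 of Krt1 and Krt10, and under 2 of each of 3 sums of hair follicle genes. It counted as non-cycling with under 1 UMI per 10000 of both a G2/M and an S phase gene sum. A member also had at least 2 UMIs per 10000 of the 4 stress genes together, here called the stress sum. The 1007 non-cycling basal cells below that threshold served as the comparison and are called other basal cells.

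The 4 libraries were single-cell RNA-seq of dorsal skin at E16.5 per the labels, sorted for the epithelial protein Epcam and for α6 integrin. The 2 Ctrl libraries carried Suv39h1 f/f, Suv39h2-/- and Setdb1 f/f without K14CreERT2, and the 2 TKO libraries carried the same alleles with K14CreERT2. Tamoxifen was given to both groups, so the controls shared the drug and the constitutive Suv39h2 deletion, and only the Cre differed. K14CreERT2 is a recombinase that tamoxifen activates in cells that use the keratin 14 promoter, mainly basal keratinocytes, so other cells of the skin keep their floxed alleles. The methods name 1 embryo for each library and a litter list gives a younger age than the labels and calls the knockout mosaic. The 3 genes encode methyltransferases that trimethylate lysine 9 of histone H3, a modification found on silenced chromatin. The comparisons ask how the stress genes vary among basal progenitors and whether the knockout alters cells in that state. Values are given in the order Ctrl replicate 1, Ctrl replicate 2, TKO replicate 1 and TKO replicate 2 wherever 4 values stand together.

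Basal keratinocytes adhere to the basement membrane and renew the epidermis. When cells are stretched, damaged or exposed to cytokines or growth factors, immediate early genes are transcribed within minutes without new protein synthesis. Their products include the Fos and Jun subunits of the transcription factor AP-1, other transcription factors such as Egr1, and inhibitors such as Zfp36 and Dusp1 that end the response. Such genes are also known to be induced by enzymatic dissociation of tissue, and the study digested the skin with collagenase and trypsin before sorting. The part of the digestion in the values below was not tested.

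The libraries held between 70749496 and 89655247 UMIs. Members contributed 139, 459, 84 and 31 cells with 2595175, 7171619, 2240522 and 748596 summed UMIs, so TKO replicate 2 rested on the fewest cells. The median member had 18483, 14978, 23270.5 and 20066 UMIs, and the median other basal cell 18554, 14770, 22114 and 21660.5. Members had median mitochondrial shares of 2.43%, 2.13%, 2.08% and 2.17%, against 2.85%, 2.41%, 2.16% and 2.37% in other basal cells. Pairs of libraries shared 39 barcodes in all, 9 of them kept and 0 of them members.

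Among the genes that chose the members, Atf3 was the most widespread. Atf3 encodes a transcription factor of the ATF and CREB family that partners Jun proteins. It had a UMI in 704 of 713 members (98.7%) reached 2 per 10000 by itself in 676 (94.8%), and was the only one of the 4 genes seen in 221 (31%). Fosl1, the AP-1 subunit also called Fra-1, had a UMI in 363 members (50.9%). Cxcl1 and Cxcl2, chemokines that attract neutrophils, had a UMI in 278 (39%) and 79 (11.1%) members, reached 2 per 10000 in 117 and 35, and were the only gene seen in 4 and 0. The cells were therefore mostly Atf3-positive cells, with Fosl1 and the chemokines in a part of them.

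The median stress sum of members was 9.78, 14.3, 5.68 and 6.35 UMIs per 10000, higher in both Ctrl libraries than in both TKO libraries. The lowest member had 2.005, 2.004, 2.14 and 2.08 and the highest other basal cell 1.96, 1.97, 1.93 and 1.94. Just inside the threshold, from 2 to 2.5, lay 7, 15, 6 and 5 members, and just outside it, from 1.5 to 2, lay 21, 28, 4 and 6 other basal cells. No stress gene UMI was seen in 236, 179, 48 and 134 other basal cells. The stress sum was thus continuous across the threshold, without a gap.

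The upstream sequences of the markers are shown because these genes define the state, Fosl1, Atf3 and Cxcl1 through the rule itself. Of the 5 markers Fosl1, Atf3, Cxcl1, Klf2 and Zfp36, 4 had a promoter in the RefSeq table (build GRCm38.p6), and Fosl1 did not. The 250 bases before each RefSeq start site matched GRCm39, the build of the files, at 1 place each, given with the sequence. The Zfp36 window lies inside, and the Klf2 window partly inside, the GENCODE span of its gene given below. The start sites of these genes thus differ between the annotations. Capitals mark letters of a form of the kB site, GGNNTTTCC, on either strand, with N for any base. The lines run 5′ to 3′ on the strand of the gene.
Atf3 (chr1:190915531-190915780, minus strand): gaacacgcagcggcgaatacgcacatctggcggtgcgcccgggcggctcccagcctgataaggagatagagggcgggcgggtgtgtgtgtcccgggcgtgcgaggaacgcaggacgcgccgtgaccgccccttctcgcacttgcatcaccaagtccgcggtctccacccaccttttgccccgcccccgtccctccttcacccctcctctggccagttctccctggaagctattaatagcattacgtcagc
Zfp36 (chr7:28078654-28078903, minus strand): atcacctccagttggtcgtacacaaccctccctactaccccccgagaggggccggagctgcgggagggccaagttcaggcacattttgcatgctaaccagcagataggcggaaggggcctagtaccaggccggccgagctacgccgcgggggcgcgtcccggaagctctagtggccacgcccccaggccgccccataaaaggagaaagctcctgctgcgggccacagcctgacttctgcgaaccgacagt
Klf2 (chr8:73072656-73072905, plus strand): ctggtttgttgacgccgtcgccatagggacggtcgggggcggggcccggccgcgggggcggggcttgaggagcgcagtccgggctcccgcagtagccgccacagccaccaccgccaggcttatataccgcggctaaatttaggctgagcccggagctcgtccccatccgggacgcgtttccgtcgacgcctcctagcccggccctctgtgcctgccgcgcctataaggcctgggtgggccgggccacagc
Cxcl1 (chr5:91038854-91039103, plus strand): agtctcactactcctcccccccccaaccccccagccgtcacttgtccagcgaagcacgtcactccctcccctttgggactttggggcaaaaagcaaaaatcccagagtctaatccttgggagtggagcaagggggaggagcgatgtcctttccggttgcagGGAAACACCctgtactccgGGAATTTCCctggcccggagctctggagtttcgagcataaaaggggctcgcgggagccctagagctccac
In Cxcl1 this form occurred at 2 places, starting 89 and 70 bases before the start site, and the other 3 sequences held none. It was found in 1 of the 4 markers and in 5.62% of 27025 genes in the table. The AP-1 letters TGANTCA were in 0 of the 4 and in 7.82% of all genes, and the CRE letters TGACGTCA in 0 of the 4 and in 1.77% of all genes. Among the 15 genes highest in members described below, 11 had a window, of which 0 held the AP-1 letters, 1 (Dusp1) the CRE letters and 1 (Ier3) the kB form. The 4 sequences had GC contents of 65.2% (Atf3), 59.2% (Cxcl1), 64.8% (Zfp36) and 71.2% (Klf2). Letters in a window are a description and not a bound site, and their absence says only that they are not in these 250 bases.

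Basal identity was checked on markers that the rule did not use. Col17a1, a collagen of the hemidesmosome, stood at 464, 460, 255 and 285 CPM (UMIs per 1000000 of the summed cells) in members and at 417, 418, 227 and 325 CPM in other basal cells. Trp63, the master transcription factor of stratified epithelia, stood at 705, 679, 419 and 439 CPM in members and at 930, 979, 542 and 713 CPM in other basal cells. It was lower in members in every library. Itga6 was at 368 to 555 CPM and Itgb4 at 124 to 167 CPM in members. Of the 5 basal markers that the rule did not use, 3 were lower in members in all 4 libraries and 1 was higher. Of these differences 0 reached 2-fold in all 4, and the median log2 ratio was −0.196. The basal markers were thus present in all 4 libraries. The 6 suprabasal markers, with Krt1 and Krt10 among them limited by the rule, summed to 971, 860, 419 and 347 CPM in members. In other basal cells they summed to 1068, 956, 452 and 821 CPM. Of these markers Ivl had 0 UMIs in 3 of the 4 member sums and 1 UMI in TKO replicate 1.

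Members held RNA of other cell types to differing degrees. The 6 melanocyte markers summed to 3.47, 7.53, 16.51 and 624 CPM, with Dct at 251 CPM in TKO replicate 2 and at most 0.697 CPM in the other 3. The 8 immune markers summed to 6.17, 25.1, 48.2 and 128.2 CPM. At 1 UMI per 10000 or more of melanocyte or immune markers lay 0, 6, 3 and 3 members. The 6 fibroblast markers summed to 1079, 1172, 932 and 740 CPM, nearly all of it Dcn. The hair follicle list of 10 genes summed to 50.4 to 94.8 CPM, but the rule itself limited all of them except Sox9. The erythroid list summed to 14.3 to 72.1 CPM. The Merkel cell list of 7 genes summed to 4.02 to 20.04 CPM, with Atoh1 and Isl1 at 0, and the endothelial list to 11.6 to 21.4 CPM, with Cdh5 and Cldn5 at 0. Schwann cell and muscle lists summed to 25.0 to 77.5 and 0 to 2.67 CPM.

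Stress-response cells made up very different shares of the non-cycling basal cells from library to library, and the genotypes overlapped. In Ctrl they were 26.4% (95% Clopper-Pearson interval 22.7 to 30.4) and 58.0% (54.5 to 61.5), and in TKO 48.6% (40.9 to 56.3) and 13.5% (9.39 to 18.7). The intervals cover counting error only. The highest share was in Ctrl replicate 2 and the lowest in TKO replicate 2, so that each genotype held a high and a low library. Group means were 42.2% ± 22.4 and 31.0% ± 24.8 (SD, n = 2), a difference of −11.2 percentage points with an exact two-sided permutation p of 0.667, where 0.333 is the smallest that 2 against 2 allows. The difference was −27 points without Ctrl replicate 1 and −28.7 points without TKO replicate 1, and it changed sign to 4.67 points without Ctrl replicate 2 and to 6.35 points without TKO replicate 2. As shares of all kept cells, members were 4.35%, 13.5%, 3.89% and 1.25%, lower in both TKO libraries than in both Ctrl libraries (exact permutation p 0.333). Those shares also depend on how many cells of other classes were kept.

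The same threshold was applied to the other gated cells of each library, to place the members among them. In S phase basal cells 25.6%, 47.9%, 48.6% and 11.8% passed, and in G2/M basal cells 18.9%, 52.7%, 40.8% and 16.53%. In suprabasal cells 8.04%, 32.3%, 29.8% and 6.31% passed. Hair follicle cells, gated by Shh, Dkk4, Pthlh and related genes, passed at 44.9%, 70.2%, 35.3% and 22.7%. Cells outside the epithelium passed too, immune cells at 34.8%, 49.6%, 48.4% and 34.5% and fibroblasts at 14.95%, 32.1%, 23.0% and 21.0%. Of melanocyte-gated cells 0 of 3, 0 of 2, 1 of 27 and 1 of 10 passed. Ctrl replicate 2 was highest in 6 of the 7 larger classes and TKO replicate 2 lowest in 6 of them, which is a description of 4 libraries.

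Depth per cell differed between libraries and classes, so the shares were repeated with each cell thinned to 5000 UMIs. Non-cycling basal cells then passed at 35.1%, 64.8%, 51.4% and 23.6%, suprabasal cells at 13.6%, 38.5%, 38.3% and 9.37%, and immune cells at 42.7%, 63.4%, 53.6% and 43.8%. The order of the libraries among non-cycling basal cells was the same as before thinning.

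**Figure D1:**
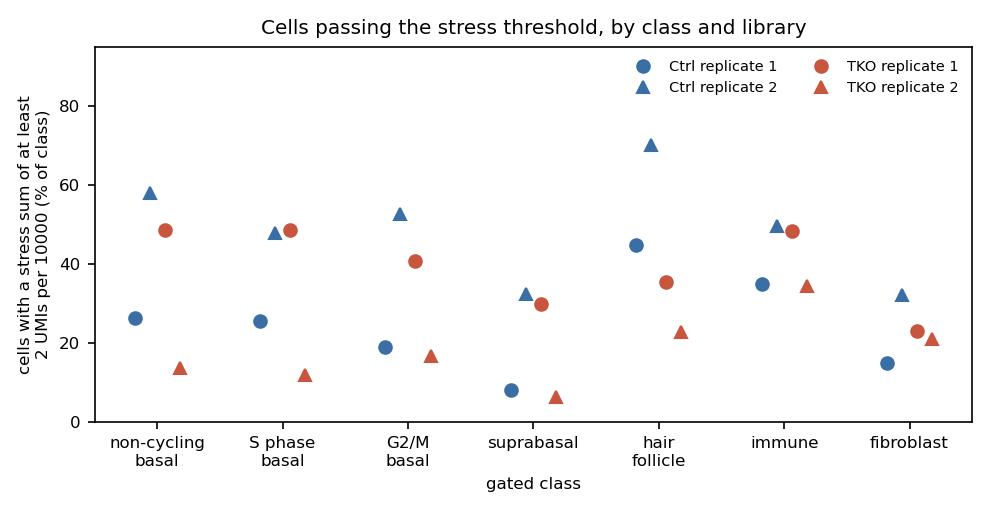
Share of cells with a stress sum of at least 2 UMIs per 10000 (y axis, percent of the class) in each gated class (x axis), 1 point for each library, blue for Ctrl and red for TKO, circles for replicate 1 and triangles for replicate 2. Non-cycling basal cells ran from 13.5% in TKO replicate 2 to 58.0% in Ctrl replicate 2, with the TKO libraries on both sides of Ctrl replicate 1.

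Members were next set against the other basal cells of the same library. The rule chose the members by 4 of these transcripts, so the contrast is a description and was not tested. Of 7174 genes at 20 CPM or more, 51 (0.711%) were at least 2-fold higher in members in all 4 libraries, 47 of them not in the rule, and 3 (0.0418%) were at least 2-fold lower. In either direction at any size, 1004 genes (14%) were higher in all 4 and 1372 (19.1%) lower, and the median log2 ratio was −0.04. The contrast was thus narrow, with few genes past 2-fold. Without TKO replicate 1 the first count was 96, all 51 genes among them, and without TKO replicate 2 the lower count was 19.

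AP-1 genes outside the rule were higher in members for the most part. Of the 8 such genes at that level that the rule did not use, 6 were higher in all 4 libraries and 5 at least 2-fold, with a list median log2 ratio of 2.11. Fos, the founding AP-1 subunit (ENSMUSG00000021250, chr12:85520658-85524047), had 1479, 2242, 1046 and 1021 CPM in members against 118, 167, 206 and 79.5 CPM in other basal cells. Its mean log2 ratio was 3.35 ± 0.67 (SD, n = 4). Fosb, a close relative of Fos, had 483, 601, 215 and 588 CPM against 21.2, 47.5, 74.7 and 11.8 CPM, the widest ratios of the list between libraries (1.51 to 5.52). Jun had 2397, 2511, 1999 and 1204 CPM against 299, 349, 686 and 190 CPM. Junb, at 472 to 944 CPM against 68.7 to 181 CPM, differed by a mean log2 ratio of 2.65. Fosl2 was close to level between the cells at a mean log2 ratio of 0.19, and Mafg at −0.12.

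Of the other immediate early transcription factors, 10 of 11 were higher in all 4 libraries and 7 at least 2-fold, with a list median log2 ratio of 2.49. Egr1, a zinc finger factor induced by serum and mitogens, had 781, 1036, 810 and 576 CPM in members against 45.4, 49.8, 213 and 48.2 CPM. Klf2 (ENSMUSG00000055148, chr8:73072726-73075502), a Krüppel-like factor known for its role in endothelium and T cells, had 80.9, 140, 25.9 and 49.4 CPM against 2.36, 10.5, 7.89 and 2.63 CPM. Nr4a1, an orphan nuclear receptor, had 80.1, 102, 72.8 and 61.4 CPM against 5.11, 5.36, 3.71 and 7.01 CPM. Klf6 and Ier3 had mean log2 ratios of 2.72 and 2.75, although Ier3, an immediate early gene on the list, does not encode a transcription factor. Myc was the exception among the 11, at a mean log2 ratio of −0.04. Klf2 overlaps Eps15l1 on the opposite strand of the annotation.

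Genes that restrain the response were high in the same cells. Of 13 feedback inhibitors, 11 were higher in all 4 libraries and 6 at least 2-fold. Zfp36 (ENSMUSG00000044786, chr7:28076209-28079710), which binds AU-rich elements and destabilises mRNAs of cytokines and early genes, had 391, 656, 353 and 321 CPM against 19.4, 31.4, 46.9 and 21.2 CPM. Its mean log2 ratio of 3.84 ± 0.67 (SD, n = 4) was the highest among genes at that level that the rule did not use. Dusp1, a phosphatase of MAP kinases, had 299, 420, 174 and 269 CPM against 17.9, 24.7, 39.9 and 16.0 CPM. Nfkbia, which holds NF-kB in the cytoplasm, had 959, 1442, 794 and 1141 CPM against 256, 316, 340 and 227 CPM, and Socs3, an inhibitor of JAK and STAT signalling, differed by a mean log2 ratio of 2.65. The Zfp36 paralogs Zfp36l1 and Zfp36l2 differed less, at 0.58 and 0.30.

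Inflammatory genes were few. Of the chemokine and cytokine list outside the rule only Cxcl10 reached the level minimum, with 112, 196, 55.8 and 90.8 CPM against 8.64, 14.2, 16.2 and 38.1 CPM. Il1a, Csf2, Cxcl3, Cxcl5 and Il1b had 0 UMIs in members. Of 6 NF-kB subunits and targets, 5 were higher in all 4 libraries and 0 at least 2-fold. Icam1, an adhesion receptor for leukocytes and an NF-kB target, had 220, 336, 191 and 254 CPM against 55.0, 57.0, 104 and 72.0 CPM. Irf1, an interferon regulatory factor and the only member of the interferon list at this level, had 23.9, 37.4, 32.6 and 40.1 CPM against 1.83, 1.15, 1.39 and 3.50 CPM. Among EGF receptor ligands Hbegf had 22.7, 24.1, 45.5 and 41.4 CPM against 6.42, 3.45, 19.0 and 14.9 CPM.

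The other stress programmes did not reach 2-fold in all libraries. At least 2-fold higher in all 4 were 0 of 12 heat shock genes and 0 of 7 genes of the integrated stress and unfolded protein response. The same count was 0 of 11 p53 targets, 0 of 4 NRF2 targets and 0 of 10 hypoxia and glycolysis genes. In the smaller sense of higher in all 4, the counts were 7 of 12, 3 of 7, 3 of 11, 0 of 4 and 2 of 10, beside 14% of all genes. Hsp90ab1 had 3905, 3689, 4718 and 3430 CPM in members and 3948, 3895, 4731 and 3926 CPM in other basal cells. Of the BMP and Id genes 1 of 6, Id3, passed 2-fold, and of the YAP and SRF targets 1 of 9, Vcl, which encodes vinculin. Of 10 differentiation genes 1 passed, Ovol1, a repressor that promotes exit from the basal state, with 65.1, 90.1, 31.2 and 41.4 CPM against 16.8, 16.1, 9.75 and 17.96 CPM. Of 10 basal layer genes 0 passed.

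The genes at least 2-fold lower in members in all 4 libraries were 3. Krt6a, a keratin of wounded and hyperproliferative epidermis, had 2.31, 0.418, 0.446 and 5.34 CPM in members and 27.2, 49.0, 101 and 22.3 CPM in other basal cells. Krt19, a keratin of simple epithelia, had 0.385, 0.139, 2.23 and 0 CPM against 13.9, 41.7, 228 and 1.97 CPM. Sprr1a, a precursor of the cornified envelope, had 0.771, 1.53, 1.34 and 0 CPM against 7.72, 46.3, 32.03 and 8.76 CPM. Krt6a and Sprr1a belong to the list of wound and migration genes, of which 8 were at that level, 3 of them higher in all 4 libraries. All 3 of the lower genes named rested on few UMIs in members (at most 11 in a library), and with other basal cells defined by a stress sum under 1 and members at 1 or more, 0 genes passed.

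**Figure D2:**
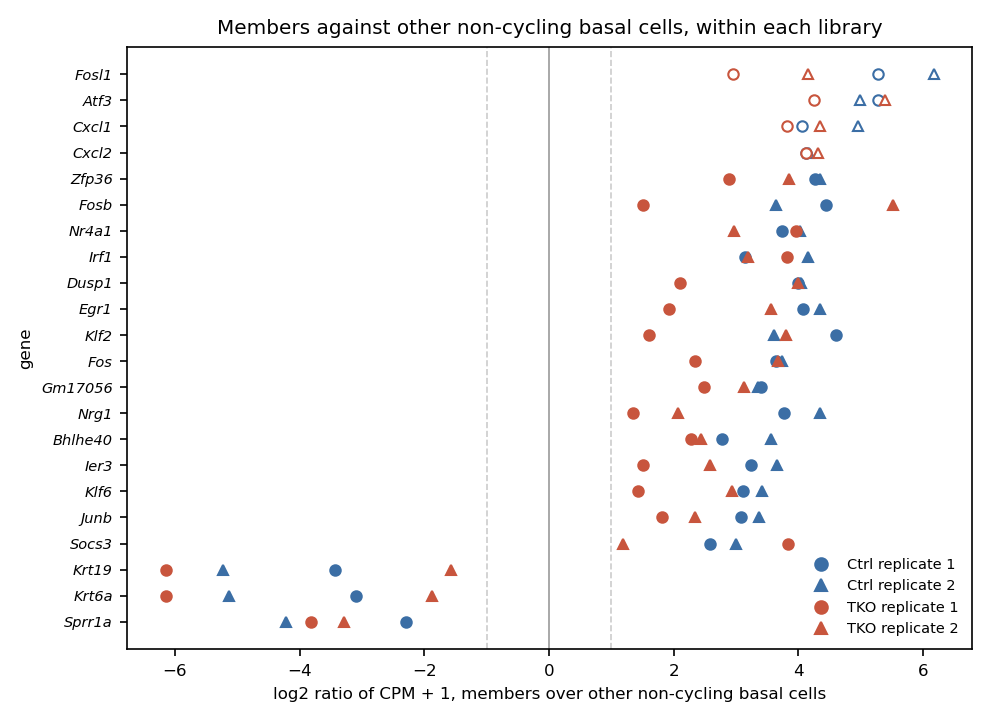
Log2 ratio of CPM + 1 in members over other basal cells (x axis) for the 4 rule genes (open symbols), the 15 highest genes outside the rule and the 3 lower genes (y axis), 1 symbol for each library. Every point of the 15 lay right of the dashed line at 1, a 2-fold difference, and TKO replicate 1 had the lowest ratio for Zfp36, Fosb, Dusp1, Egr1, Klf2 and Fos.

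Within each library the levels were followed over tiers of the stress sum, from other basal cells without a UMI of the 4 genes to members at 8 or more per 10000. Fos was higher at every step in Ctrl replicate 1, at 73.3, 181, 505, 777 and 2067 CPM, and in TKO replicate 1, at 95.7, 309, 570, 866 and 1695 CPM. In TKO replicate 2 its values were 70.8, 96.5, 164, 493 and 2011 CPM. The highest tier was thus at a like level in TKO replicate 2 and Ctrl replicate 1, although that TKO tier held 15 cells and the Ctrl tier 78. Nr4a1 reached 109, 131, 109 and 113 CPM in the highest tier from 2.45, 6.07, 2.87 and 6.62 CPM without a stress UMI. Irf1 stood at 2.61 to 4.4 CPM in members from 2 to 4 and reached 37.8, 50.7, 65.7 and 87.0 CPM at 8 or more.

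Klf2 was uneven across the tiers. It stood at 135, 182, 31.6 and 119 CPM at 8 or more, and in TKO replicate 2 at 0 in both lower tiers of members, which held 9 and 7 cells. Krt14, whose level the keratin threshold conditions in every tier, had 7753, 8270, 6128 and 8960 CPM without a stress UMI and 7295, 9060, 6459 and 5099 CPM at 8 or more. Trp63 was lower at 8 or more, at 666, 603, 440 and 271 CPM, than without a stress UMI, at 942, 992, 541 and 751 CPM.

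**Figure D3:**
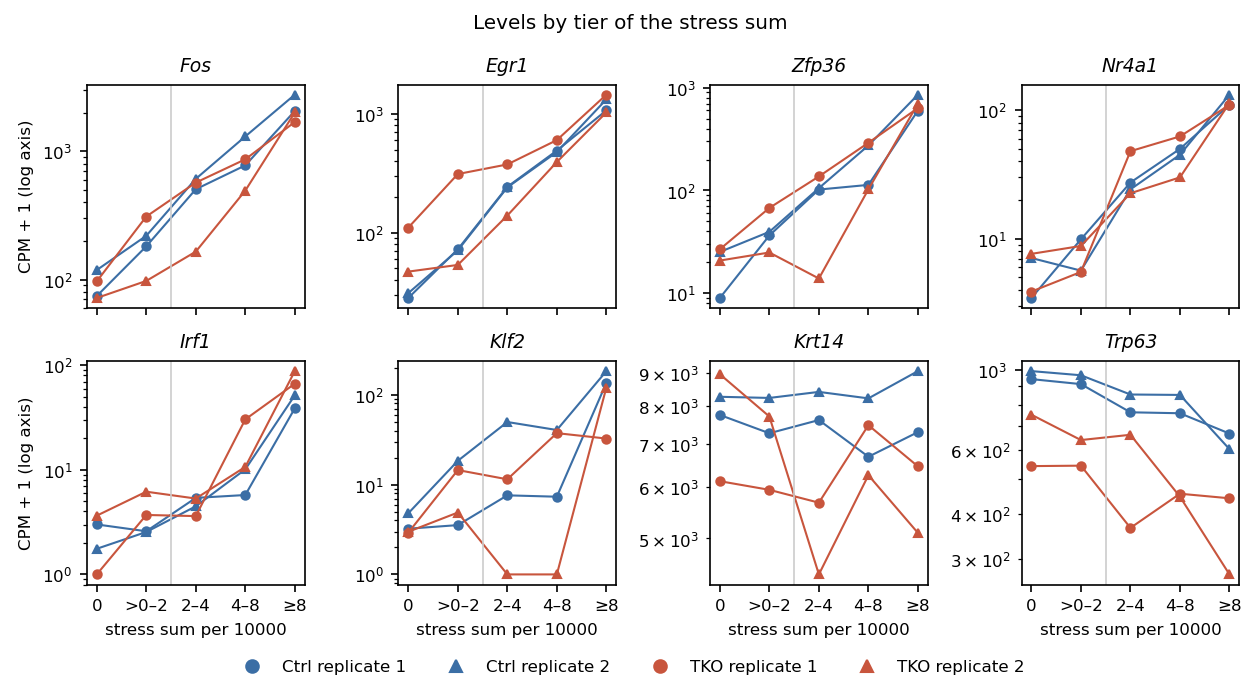
CPM + 1 on a log axis (y axis) by tier of the stress sum in UMIs per 10000 (x axis, other basal cells left of the grey line and members right of it) for 8 genes, 1 line for each library. Fos, Egr1, Zfp36, Nr4a1 and Irf1 were highest in the last tier in all 4 libraries, whereas Trp63 was lower in the last tier than in the first, and Krt14 is a gene of the rule.

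The genes whose pattern was most like the stress sum were found by the log2 ratio of members at 8 or more over other basal cells, taking the lowest of the 4 libraries. They were Nr4a1 (3.83), Irf1 (3.78), Zfp36 (3.72), Fos (3.04) and Bhlhe40 (2.76), the last a helix-loop-helix repressor.

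The genotypes were then compared within the members, on UMIs summed over the cells of each library. The targeted genes came first. Setdb1 (ENSMUSG00000015697, chr3:95229399-95264541) had 58.2, 50.6, 43.7 and 34.7 CPM, lower in both TKO libraries, at a fitted log2 change of −0.48 with SE 0.194 (edgeR adjusted p 0.214). Suv39h1 (ENSMUSG00000039231, chrX:7927403-7940999) had 17.7, 20.9, 14.3 and 16.0 CPM, which gave −0.46 with SE 0.268 (edgeR adjusted p 0.4). Suv39h2 (ENSMUSG00000026646, chr2:3455774-3476146), deleted in both groups, had 15.4, 16.45, 15.6 and 13.4 CPM. None of the 3 was called. The libraries count 3′ transcript ends, which need not include the floxed exons, so these values do not check the labels.

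Among 11270 genes, 507 (4.5%) were higher and 233 (2.07%) lower in TKO members, here called raised and lowered (edgeR quasi-likelihood F-test at an adjusted p under 0.05 by Benjamini-Hochberg). In other basal cells of the same embryos 408 (3.14%) were raised and 143 (1.1%) lowered of 13014, or 551 (4.23%) in either direction. The member counts moved with single libraries, from 169 raised and 54 lowered without Ctrl replicate 2 to 1167 raised and 861 lowered without TKO replicate 1. They were 276 and 96 without Ctrl replicate 1 and 931 and 736 without TKO replicate 2. As shares of the genes tested, 9.51% were raised and 7.02% lowered with TKO replicate 1 left out, and 7.75% and 6.12% with TKO replicate 2 left out.

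The genes raised most had 0 UMIs in both Ctrl member sums, and 81 raised genes were under 1 CPM in both. Their folds are lower bounds against a floor of 3 UMIs over the pooled Ctrl members, 0.307 CPM. Npffr1, a receptor for neuropeptide FF (chr10:61430652-61464344), had 0, 0, 146 and 37 UMIs, at least 199-fold higher (52.96-fold with Ctrl replicate 2 left out). Ddit4l, an inhibitor of mTOR signalling (chr3:137327282-137334229), had 0, 0, 79 and 24 UMIs, at least 112-fold higher (29.8-fold with Ctrl replicate 2 left out). The long noncoding RNA gene Gm11884 (chr4:23260747-23392503) had 0, 0, 80 and 22 UMIs, at least 111-fold higher (29.5-fold with Ctrl replicate 2 left out). In members all 3 were detected in both TKO libraries and in neither Ctrl library at this depth, whereas Ddit4l stood at 0.393 CPM in other basal cells of Ctrl replicate 1.

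Fut9, a fucosyltransferase, and Acaa1b, a peroxisomal thiolase, had 0, 0, 46 and 26 UMIs and 0, 0, 46 and 27 UMIs, at least 78.4- and 79.5-fold higher (20.8- and 21.1-fold without Ctrl replicate 2). Gm36551 was at least 78.4-fold higher, or 20.8-fold without that library and 135-fold without TKO replicate 1. Gm1110 had 16 and 53 UMIs in the TKO libraries, at least 75.2-fold higher, which was 23.2-fold without TKO replicate 2, 230-fold without TKO replicate 1 and 19.97-fold, not called, without Ctrl replicate 2. Of the 10 genes listed as derepressed in TKO, a list chosen on these data, 10 were raised (8 to 10 when a library was left out), beside 4.5% over all genes, a count that the choice of the list fixed. They included Gria3, a glutamate receptor subunit, with 0.385, 1.25, 161 and 204 CPM. Acaa1b overlaps Dlec1 and Gm36551 overlaps Cyp3a13 on the opposite strand. Ddit4l, Gm36551 and Gria3 overlap other records on their own strand, so their counts are uncertain to that extent.

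Tagln, the smooth muscle gene transgelin and a target of SRF (chr9:45840909-45847404), was raised in a way that differed between the TKO libraries. It had 0, 0, 91 and 125 UMIs in members, or 40.6 and 167 CPM in TKO, at least 235-fold higher (edgeR adjusted p 0.00536). The bound was 62.5-fold without Ctrl replicate 2. Leaving out TKO replicate 2 made it 132-fold and leaving out TKO replicate 1 made it 544-fold. The TKO libraries also differed in which members held the RNA. At a stress sum of 8 or more the log2 ratio of Tagln over other basal cells was −5.79 in TKO replicate 1 (32 cells) and 6.05 in TKO replicate 2 (15 cells). In other basal cells it had 0.524, 0.191, 54.3 and 2.85 CPM and was not called (edgeR adjusted p 0.0901). The difference between the 2 kinds of cell was not called either (log2 difference 5.47, SE 6.74, edgeR adjusted p 0.967). Tagln overlaps Pcsk7 on the opposite strand.

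Lowered genes were led by Erbb4, a neuregulin receptor (chr1:68071345-69147619), with 30, 62, 1 and 0 UMIs (edgeR adjusted p 0.0111). Its level was 28.2-fold higher in pooled Ctrl than in pooled TKO members, with an exact counting interval of 4.93 to 1124. It was not called without Ctrl replicate 1 or without Ctrl replicate 2, and without TKO replicate 1 it was at least 2.35-fold lower in TKO against a floor of 3 UMIs. Adamts9, a secreted metalloprotease (chr6:92749680-92920520), had 40.1, 44.2, 0.893 and 4.01 CPM, a log2 change of −4.67 (standard error 0.433, adjusted p 0.00127 in edgeR) that became −3.49 with TKO replicate 1 and −5.59 with TKO replicate 2 left out. In other basal cells it was −4.86. Tox3, an HMG-box factor (chr8:90972261-91075014), had 97.5, 50.5, 10.7 and 9.35 CPM, a log2 change of −2.87 (standard error 0.405, adjusted p 0.00612 in edgeR), and −1.04 in other basal cells. Fat4, a giant cadherin, had 32.4, 20.9, 3.12 and 2.67 CPM. Erbb4 and Adamts9 overlap other genes on the same strand, as do Grm4 and Pik3c2g among the genes that follow, so their counts are uncertain to that extent.

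Grm4, a glutamate receptor, Vegfd, a lymphatic growth factor, and the long noncoding RNA gene 1700120C14Rik were lowered in members and not called in other basal cells. Grm4 had 27.0, 14.9, 1.79 and 0 CPM in members against 6.81, 8.80, 10.2 and 3.07 CPM in other basal cells. Vegfd had 18.5, 11.7, 1.79 and 0 CPM against 8.12, 10.1, 7.43 and 5.69 CPM. The log2 difference between the genotype effects was −4.04 (standard error 0.805, adjusted p 0.43 in edgeR) for Grm4 and −3.15 (standard error 0.806, adjusted p 0.608 in edgeR) for Vegfd, so neither difference passed. TKO replicate 2 had 0 UMIs of each of the 3, so without TKO replicate 1 Grm4, Vegfd and 1700120C14Rik were at least 4.52-, 3.37- and 4.73-fold lower against a floor of 3 UMIs. Vegfd was not called without Ctrl replicate 1 or with members at a stress sum of 1 or more, nor 1700120C14Rik with members chosen on one part of the UMIs. Pik3c2g, a lipid kinase, changed by −3.05, or by −1.86 with TKO replicate 1 and −3.98 with TKO replicate 2 left out, and was not called at 5000 UMIs per cell.

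Few AP-1 and other immediate early genes passed the genotype test. Of 9 AP-1 genes outside the rule 0 were raised and 2 lowered, beside 4.5% raised and 2.07% lowered over all genes, with a list median of −0.54 and a median of −0.01 over all genes tested. Fos, with the levels given above, was below both Ctrl libraries in both TKO libraries, by −0.92 on the log2 scale with SE 0.206 (edgeR adjusted p 0.0373). It was not called without Ctrl replicate 2 (−0.60). Fosl2, another AP-1 subunit, had 138, 136, 75.9 and 73.5 CPM, a log2 change of −0.94 (standard error 0.149, adjusted p 0.0103 in edgeR), and was not called without Ctrl replicate 1, without Ctrl replicate 2 or at 5000 UMIs per cell. Jun changed by −0.68 and Junb by −0.53, without being called. The median stress sum, which chose the cells, was also lower in TKO members. With members at a stress sum of 4 or more Fos changed by −0.68 and was not called (adjusted p 0.0852 in edgeR). It was called with members at 1 or more (−1.01) and with members chosen on one part of the UMIs and measured on the rest (−0.78).

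Of 15 other immediate early factors 0 were raised and 1 was lowered, beside 4.5% raised and 2.07% lowered over all genes. This was Klf2, with a log2 change of −1.79 (standard error 0.349, adjusted p 0.022 in edgeR) and a list median of −0.50. Klf2 was not called without Ctrl replicate 2 (−1.26), and the list then had 0 lowered. Of 16 tested, 8 were lowered with TKO replicate 1 left out and 7 with TKO replicate 2 left out, beside 7.02% and 6.12% over all genes in those fits. In other basal cells Klf2 changed by −0.43 (edgeR adjusted p 0.824). Of 16 feedback inhibitors 0 were called, with a median of −0.38. Of 17 tested in the same 2 fits, 5 and 9 were lowered and 1 was raised in each. Zfp36 changed by −0.71 (standard error 0.236, adjusted p 0.138 in edgeR). Chemokines and cytokines outside the rule had 0 calls among 4, with Cxcl10 at −1.24 (standard error 0.31, adjusted p 0.0564 in edgeR). Cxcl10 was called as lowered by DESeq2, with the replicate block, with the crossed block and with no expression filter. It was also called with members under 5% mitochondrial UMIs or at a stress sum of 1 or more. NF-kB genes had 0 calls among 8, and interferon genes 0 among 5. The NF-kB list had 2 lowered with TKO replicate 1 left out and 4 with TKO replicate 2 left out. The direction of the chemokine list turned, from 3 raised and 1 lowered of 5 (median 1.26) with TKO replicate 1 left out to 1 raised and 2 lowered of 5 (median −0.93) with TKO replicate 2 left out. The AP-1 list had 0 lowered without Ctrl replicate 2, 1 without Ctrl replicate 1 and 4 when either TKO library was left out, with 1 raised as well when that was TKO replicate 1.

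Of 12 p53 targets, 7 were raised in members and 0 lowered, beside 4.5% raised over all genes, with a median of 1.42, and 6 to 9 were raised when a library was left out. Cdkn1a, the cell cycle inhibitor p21 (chr17:29309936-29319701), had 61.3, 72.5, 274 and 465 CPM, a log2 change of 2.36 (standard error 0.249, adjusted p 0.00191 in edgeR). Ccng1, which encodes cyclin G1 (chr11:40639377-40646148), had 21.2, 27.2, 177 and 174 CPM, a log2 change of 2.75 (standard error 0.175, adjusted p 0.000222 in edgeR). Trp53inp1, a proapoptotic p53 partner, had 69.4, 69.3, 295 and 403 CPM, and Bax, which permeabilises mitochondria in apoptosis, 74.0, 93.7, 303 and 394 CPM. Both TKO libraries lay above both Ctrl libraries for each of these 4. In other basal cells 9 of the 12 were raised, beside 3.14% raised over all genes there, with Cdkn1a at 25.7, 28.9, 321 and 195 CPM. Mdm2, the ubiquitin ligase of p53, was not called in members (0.97, edgeR adjusted p 0.0611).

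Of 11 hypoxia and glycolysis genes 5 were raised, Ddit4, Hk2, Pgk1, Ldha and Eno1, and 0 lowered, beside 4.5% raised over all genes, with log2 changes between 0.75 and 0.97. Ldha, lactate dehydrogenase A, had 333, 310, 540 and 597 CPM, and Hk2, hexokinase 2, had 37.4, 43.8, 82.1 and 84.2 CPM. The libraries did not overlap for either, but the count was 1 without Ctrl replicate 1 and 0 without Ctrl replicate 2. Hk2 and Ldha were also not called at 5000 UMIs per cell, nor Hk2 and Eno1 with members at a stress sum of 4 or more, and neither was Hk2 by DESeq2 nor Eno1 with the replicate block. Slc2a1, the glucose transporter GLUT1, changed by −0.55 without being called. Of 12 heat shock genes 1 was raised, Hspb1, with 197, 194, 400 and 810 CPM, a log2 change of 1.54 (standard error 0.287, adjusted p 0.0187 in edgeR), not called without Ctrl replicate 2. The heat shock list had 3 raised with Ctrl replicate 1 left out and 0 with Ctrl replicate 2 left out. Leaving out TKO replicate 1 gave 3 raised and 1 lowered, and leaving out TKO replicate 2 gave 7 raised, beside 9.51% and 7.75% raised over all genes.

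Targets of YAP and SRF moved in both directions. Of 10 tested, 4 were raised (Tagln, Myl9, Tpm1 and Ccn2) and 2 lowered (Ccn1 and Thbs1), beside 4.5% and 2.07% over all genes. Tpm1, a tropomyosin of actin filaments, had 112, 139, 452 and 633 CPM, a log2 change of 2.02 (standard error 0.201, adjusted p 0.00151 in edgeR). Myl9, a myosin light chain, had 1 UMI in each Ctrl library against 13.8 and 44.1 CPM in TKO, 105-fold higher in pooled TKO members with an exact counting interval of 27.8 to 882, and was called with any 1 library left out. Ccn1, a secreted matricellular protein, fell from 216 and 318 to 110 and 104 CPM, a log2 change of −1.39 (standard error 0.208, adjusted p 0.0079 in edgeR), and was not called without Ctrl replicate 2. Thbs1, thrombospondin 1, fell from 57.4 and 51.2 to 13.8 and 10.7 CPM, a log2 change of −2.13 (standard error 0.225, adjusted p 0.00191 in edgeR). Without Ctrl replicate 2 the list had 3 raised and 1 lowered.

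Of 10 basal layer genes outside the rule 0 were raised and 3 lowered, Dlk2, Col17a1 and Trp63, beside 2.07% lowered over all genes. Dlk2, a Notch-related membrane protein of basal cells, had 65.9, 63.3, 24.5 and 16.0 CPM, a log2 change of −1.63 (standard error 0.218, adjusted p 0.00489 in edgeR). Trp63 changed by −0.76 (standard error 0.14, adjusted p 0.0177 in edgeR) and Col17a1 by −0.85 (standard error 0.142, adjusted p 0.0123 in edgeR), and neither was called without Ctrl replicate 1 or without Ctrl replicate 2, when the list had 1 lowered. With TKO replicate 1 left out it had 4 and with TKO replicate 2 left out 6, beside 7.02% and 6.12% over all genes.

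Of 11 differentiation genes outside the rule 4 were lowered, Krtdap, Ovol1, Lgals7 and Dsg1a, and 0 raised, beside 2.07% lowered over all genes, with a median of −0.01. Krtdap, a protein of differentiating keratinocytes, had 658, 652, 313 and 224 CPM, a log2 change of −1.34 (standard error 0.184, adjusted p 0.00552 in edgeR). Ovol1 changed by −1.24 (standard error 0.233, adjusted p 0.0188 in edgeR) in members and by −0.22 in other basal cells, and was not called without Ctrl replicate 2 or with members at a stress sum of 1 or more. Lgals7 changed by −0.70 and was not called when either Ctrl library was left out. The list had 2 lowered without Ctrl replicate 1 and 1 without Ctrl replicate 2.

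**Figure D4:**
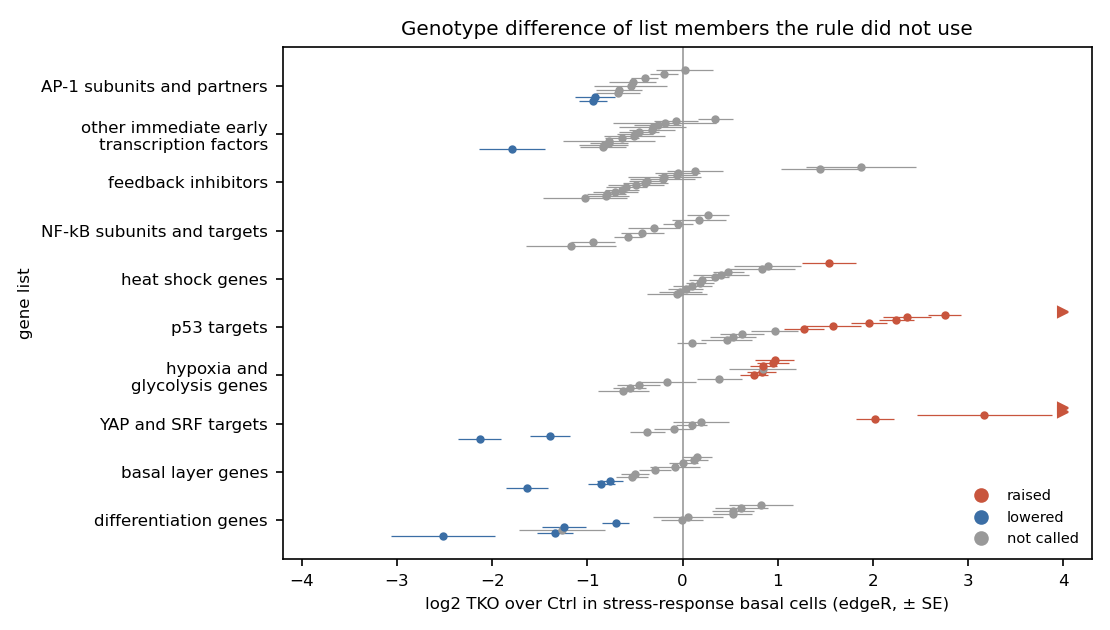
Log2 change of TKO over Ctrl in members (x axis) for each tested gene of 10 lists (y axis), leaving out genes the rule used, with bars for the standard error of the edgeR fit. Red points were raised, blue lowered and grey not called, and triangles at the right edge mark changes above 4 (Eda2r among p53 targets, Myl9 and Tagln among YAP and SRF targets). The 7 called p53 targets lay right of 0 and the called AP-1 genes left of it.

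Further lists gave few calls, beside 4.5% raised over all genes. Among EGF receptor ligands Hbegf was raised (log2 change 0.83 with standard error 0.192, adjusted p 0.0414 in edgeR), among NRF2 targets Txnrd1 (0.80, edgeR adjusted p 0.0487), and among wound and migration genes Krt17 (1.31, edgeR adjusted p 0.0492). None of the 3 was called without Ctrl replicate 1 or without Ctrl replicate 2, none was called with the replicate block, by DESeq2 or with members at a stress sum of 4 or more, Hbegf was also lost without TKO replicate 1, and Krt17 changed by 0.66 without TKO replicate 2. Among cell cycle genes that the rule did not use, Ccnd1, cyclin D1, had 90.9, 99.6, 162 and 329 CPM (log2 change 1.24 with standard error 0.289, adjusted p 0.0431 in edgeR) and Top2a 14.3, 13.7, 29.5 and 29.4 CPM (1.01, edgeR adjusted p 0.0422), neither called without Ctrl replicate 1 or Ctrl replicate 2 and Top2a not without TKO replicate 1. Top2a was also not called with the block, by DESeq2 or with doublets left out. With members chosen on one part of the UMIs neither was called, Ccnd1 at 0.40 and Top2a at 0.64, and Ccnd1 was not called with members at a stress sum of 4 or more. The integrated stress and unfolded protein response had 0 calls among 9 genes and the BMP and Id list 0 among 9, at 6.57% called in either direction over all genes. Ddit3, a gene of the former list, was not analysed here.

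Markers of other cells moved with genotype in members as well. Of the melanocyte markers Mlana was called as raised, with 1, 1, 16 and 71 UMIs, and of the immune markers Fcer1g and C1qb. The Schwann cell marker Mbp and the erythroid marker Hba-a1 were also raised, with 59, 243, 132 and 52 UMIs and 6, 31, 33 and 22 UMIs, and the hair follicle marker Sox9 was lowered, with 136, 365, 67 and 25 UMIs. Over the lists, this was 1 of 3 melanocyte, 2 of 5 immune, 1 of 1 Schwann cell and 1 of 3 erythroid markers tested, beside 6.57% called over all genes. It was also 1 of 3 hair follicle markers, of which only Sox9 lay outside the rule, and 0 of 2 fibroblast and 0 of 1 endothelial markers. Leaving out the members at 1 UMI per 10000 or more of melanocyte or immune markers, a choice made after seeing the data, gave 797 called genes, 706 of the 740 among them. Among the named genes Top2a was then not called (log2 change 0.85, adjusted p 0.0975 in edgeR), and Mdm2 and Zfp36l1 were, while Tagln, Cdkn1a, Fos and Klf2 were called as before.

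**Figure D5:**
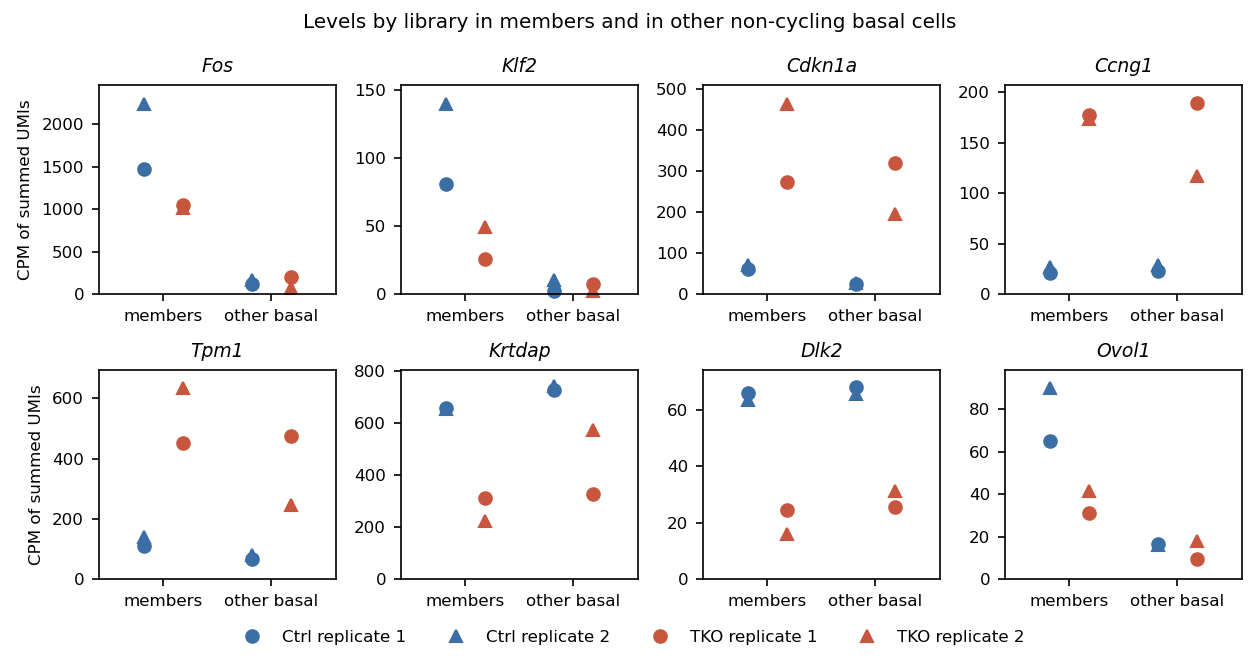
CPM of summed UMIs (y axis, from 0) of 8 genes in members and in other basal cells (x axis), 1 point for each library. In members both TKO libraries lay below both Ctrl libraries for Fos, Klf2, Krtdap, Dlk2 and Ovol1 and above them for Cdkn1a, Ccng1 and Tpm1, and Fos, Klf2 and Ovol1 overlapped between genotypes in other basal cells.

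Whether the genotype effect differed between members and other basal cells was tested directly. Of 12999 genes, 0 (0%) passed (edgeR interaction test), 725 at an unadjusted p under 0.05, and DESeq2 called 4. The smallest adjusted p was 0.105, shared by Cxcl10, with a log2 difference of −2.32 (SE 0.246), and an Nrg1 record. The differences for Fos, Klf2, Egr1, Junb and Zfp36 were −0.74, −1.31, −1.59, −1.20 and −1.01, with edgeR adjusted p between 0.413 and 0.92. Leaving out TKO replicate 1 gave 861 genes and leaving out TKO replicate 2 gave 283, with the lone TKO library of each assumed to vary like the others, so the count of 0 depended on both TKO libraries being in the fit.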

How the data were processed

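Single-cell RNA-seq was analysed in 2 Ctrl and 2 TKO libraries, each 1 sample, grouped by the labels. The authors deposited filtered 10x matrices of raw UMI counts per gene and barcode, not normalized. Per the file headers they were written by cellranger 7.1.0, the labels name Cell Ranger and GRCm39, and a different version stands in the methods. The study tested single cells after Harmony alignment, whereas cells were not treated as replicates here. Whether introns and strand were used in counting is not given in the sources used here. Gene positions came from GENCODE vM39, by gene ID, for all but 744 of 56980 genes.

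Cells were gated by the stated thresholds, with UMIs scaled to 10000 per cell, and no doublets were removed in the main analysis. UMIs were summed per library over members and over other basal cells, and CPM are that sum's counts per 1000000 UMIs. Genotypes were compared by quasi-likelihood F-tests in edgeR 4.0.16 under R 4.3.3, after filterByExpr and TMM, with genotype alone in the design. A call means a p under 0.05 after Benjamini-Hochberg adjustment over the whole table, and adjusted p-values of single genes come from this fit. The interaction was fitted on all 8 sums with a term for each library. Genes the rule used were left out of list counts, since the thresholds limit their values. The counts and sums of cell type markers kept them. Members against other cells were compared as log2 of CPM + 1 within each library, without a test. DESeq2 1.42.0 was an alternative, and each library was left out in turn. Shares have exact Clopper-Pearson intervals. The scripts were tested on simulated data.

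Named genes were the 8 raised and 8 lowered most among called genes at 10 CPM or more without overlap between groups, the 15 highest and up to 10 lowest of the state contrast, the 5 most like the stress sum, up to 4 called and 4 highest genes of each list, the rule genes, markers and targeted genes. Ccn2, Dsg1a, Eda2r, the marker genes and other genes named to describe a list (such as Myc, Mafg, Zfp36l2 and Il1a) fall outside it and were chosen after their values were seen. The members and the lists were chosen with earlier results of these data known. Replicate numbers did not pair the samples (correlation of deviations −0.02 in members), and nothing in the labels beyond the embryo says how libraries were processed, so p-values measure the spread between these 4 libraries.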

Additional observations from a re-analysis of the deposited data

How the results depend on the processing

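Counts of called genes moved most with single libraries. Without 1 library the genes raised in members ranged from 169 to 1167 and those lowered from 54 to 861, in other basal cells from 113 to 1244 and from 22 to 989, and the interaction from 0 to 861. The share difference ranged from −28.7 to 6.35 percentage points, with reversals at 4.67 (without Ctrl replicate 2) and 6.35 (without TKO replicate 2). Genes at least 2-fold higher ranged from 53 to 96 and lower from 2 to 19. With no expression filter there were 957 raised and 580 lowered in members, 1065 and 692 in other basal cells and 132 for the interaction, which had 4 by DESeq2 and 1 at 5000 UMIs per cell. Raised genes in members were 321 with a stress sum of at least 4 and 288 at 5000 UMIs per cell. In other basal cells a stress sum under 1 gave 262 raised and 62 lowered. At 1.5-fold the state counts were 125 higher and 9 lower. Lower genes were 0 with a stress sum of at least 1, 5 at 5000 UMIs per cell, 6 with members chosen on one part of the UMIs and 6 at 5 CPM. The targeted gene Suv39h1, not called, changed sign at 5000 UMIs per cell (0.29).

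A replicate block gave 390 raised and 169 lowered in members, 428 and 145 in other basal cells and 0 for the interaction. The numbers give no pairing, with a correlation of −0.21 in other basal cells, and the crossed pairing as a block, chosen after seeing the data, gave 678 raised and 377 lowered in members and 653 and 361 in other basal cells. Of the 53 named calls 25 were kept in every setting in which they were tested (19 in all 17, and Acaa1b, Ddit4l, Fut9, Gm36551, Grm4 and Myl9 in fewer) and 28 were lost in at least 1, 24 of them when Ctrl replicate 2 was left out, 17 with Ctrl replicate 1 and 3 with TKO replicate 1 left out, 9 with a stress sum of at least 4, 7 by DESeq2, 7 at 5000 UMIs per cell and 6 with the block, while 0 changed sign. Some of the 66 named genes that were not called were called in other settings, such as Cxcl10, Dusp1, Klf4 and Jun. The cause of these moves was not tested. TKO replicate 2 had the smallest member sum, 748596 UMIs from 31 cells.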
